A study of Mus musculus with 8 samples.

Results

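Integrins are receptors of 1 alpha and 1 beta chain, and laminins are basement membrane proteins of 1 alpha, 1 beta and 1 gamma chain. The genes of these chains were described in whole primary tumours of 4T1.13 cells, a metastatic mouse mammary carcinoma line. The members are the 37 genes of the count table whose symbol is that of an integrin alpha chain (18 genes), an integrin beta chain (8) or a laminin chain (11), out of 27179 identifiers listed. The question of the comparison is how tumours with repressed miR-21 differed from control tumours. The groups were 4 tumours of 4T1.13-VC cells, which carry a vector with a scrambled sequence, and 4 of 4T1.13-miR-21-KD cells, which carry an RNA that sequesters mature miR-21. Both lines hold the same lentiviral backbone, with an H1 promoter for the RNA, the mCherry reporter and hygromycin resistance, and each line is a pool of single-cell clones, so that clones and construct cannot be told apart. The cells (100000 per mouse) were placed orthotopically in immunocompetent BALB/c mice, young adult females per the methods of the study. Per the labels the tumours were taken at day 14, when the miR-21-KD tumours had begun to regress, whereas those methods name a slightly earlier day.

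In integrins both chains must meet in the cell before the receptor reaches the surface, and 1 beta chain often serves many alpha chains. Beta 2 (Itgb2) and beta 7 (Itgb7) are leukocyte chains, whose receptors hold white blood cells to endothelium, to other cells and to complement fragments. Beta 4 (Itgb4) joins alpha 6 (Itga6) in the hemidesmosome, which anchors epithelium to laminin with the chains Lama3 and Lamb3. Beta 1 (Itgb1) is made by nearly all cells and forms, among others, the fibronectin, collagen and laminin receptors.

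Mature miR-21 acts by pairing its seed, bases 2 to 8 from the 5′ end, with matching letters in the 3′ UTR of an mRNA. Its sequence (mmu-miR-21a-5p, RefSeq, GRCm38.p6, chr11:86584120-86584141, minus strand) is shown with the seed in capitals, together with the letters around the matches that bear on the results below, read from the GENCODE M21 transcripts with the longest 3′ UTR of each gene (GRCm38, the assembly of mm10) and with the matched letters in capitals.
mmu-miR-21a-5p: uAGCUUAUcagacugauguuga
Itga8, 7-letter match (chr2:12107895-12107901, minus strand): ggagaatattttatattTAAGCTAtttt
Itgav, 8-letter match (chr2:83803796-83803803, plus strand): cactacagttgacttcATAAGCTActga
Itga1, 8-letter match (chr13:114957302-114957309, minus strand): gtagcagacccctgacATAAGCTAcata
Itga4, 7-letter match (chr2:79328731-79328737, plus strand): aaaacttagaattttatATAAGCTttaa

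The letters searched on the mRNA strand were ATAAGCT, which pairs with bases 2 to 8, ATAAGCTA, which adds an A opposite base 1, and TAAGCTA, which pairs with bases 1 to 7 and not with base 8, and matches within a longer one were counted once. Of the 37 chains, 5 (13.5%) had a match, against 1647 of the 13347 tested genes with an annotated 3′ UTR (12.3%). Itga1 had 3 matches, Itgav 2, Itgb8 2, Itga4 1 and Itga8 1. The median length of the UTRs searched was 1112 bases for the chains and 1174 for the tested genes. Of the 16 chains whose expression changed, 1 (Itga8) held a match, the TAAGCTA form without base 8, so that 15 of the changes were in mRNAs without these letters in the UTR searched. The precursor gene Mir21a had 0 counts in all 8 tumours, which allows up to 3 counts each, and the vector sequesters the mature RNA, so the table does not check the labels by the targeted gene.

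Expression was measured as reads per gene and is given as CPM, the counts of a gene relative to those of the library, scaled by the TMM factor. Totals ran from 12134849 to 13592695 counts per tumour, at which a count of 0 allows up to 0.221 to 0.247 CPM (counting error only). The chains held 0.496% to 0.714% of a tumour's counts. Differences were tested over 14382 genes with the quasi-likelihood test of edgeR, and a gene is called changed at a Benjamini-Hochberg adjusted p under 0.05. All values are for n = 4 tumours per group with the SD, and fold changes are log2 of miR-21-KD over VC with their standard error (SE). The labels do not say which tumours share a cage, day or litter, so p-values measure the spread between these tumours. Since whole tumours were sequenced, fewer cells of a type and less RNA per cell cannot be told apart.

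Of the 37 chains, 35 had enough counts to be tested and 16 of these changed (45.7%, against 39.1% of all tested genes). Of the 35, 11 rose in miR-21-KD tumours (31.4%, against 19.6% of all tested genes) and 5 fell (14.3%, against 19.5%). For 12 of the 35 chains the tumours of 1 group all lay outside the range of the other, against 35.2% of all tested genes. Among the tested chains, Itgb6 reached the level of the count filter in the 4 miR-21-KD tumours and in no VC tumour. Lama1 and Lamc3 reached it in the 4 miR-21-KD tumours and in 2 and 3 VC tumours, so that the VC tumours alone would not have passed them. By kind of chain, the median log2 fold change was 0.64 over the 7 tested leukocyte chains, -0.81 over the 5 tested epithelial integrin chains and 0.47 over the 12 stromal, vascular, platelet and widely expressed integrin chains. It was 1.07 over the 4 laminin chains of epithelial basement membrane and 0.08 over the 7 other laminin chains, against -0.01 over all tested genes. The replicate number was also used as a block, although the labels do not say that it marks pairs. With this block 15 chains were higher (42.9%, against 23.0% of all tested genes) and 7 lower (20%, against 22.1%).

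**Figure D1:**
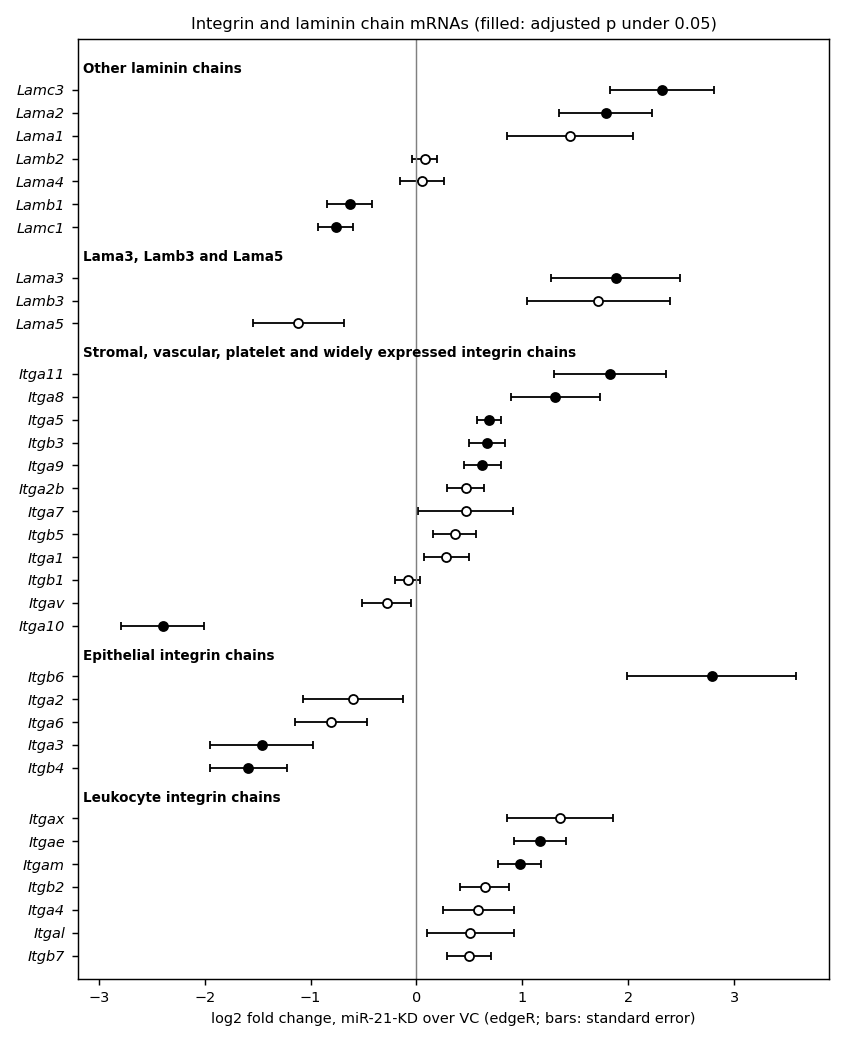
Log2 fold changes of tested chains (x axis, miR-21-KD over VC, bars for the SE), grouped by kind of chain, with filled points for an adjusted p under 0.05 in edgeR. All 7 leukocyte chains lie above 0, and 4 of the 5 epithelial integrin chains lie below 0, with the scarce Itgb6 at 2.79.

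The calls did not all rest on the same footing. For 7 of the 16 (Itgam, Itgae, Itga5, Itga10, Itgb4, Lamc1 and Lamc3) the threshold was passed without any 1 of the 8 tumours. The other 9 lost it in at least 1 such fit. Among the 16 changed chains, miR-21-KD replicate 2 was the miR-21-KD tumour nearest to the VC group for 14 and VC replicate 1 was the VC tumour nearest to the miR-21-KD group for 10.

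Of the 7 tested leukocyte integrin chains 2 rose in miR-21-KD tumours (28.6%, against 19.6% of all tested genes). These were Itgam and Itgae, at about 2-fold, and the 5 other tested chains, Itgax, Itgb2, Itga4, Itgal and Itgb7, had positive fold changes that missed the threshold. Itgam (Entrez 16409, chr7:128062640-128118491), whose product CD11b pairs with beta 2 on macrophages, monocytes and neutrophils, had 307, 252, 216 and 334 CPM in VC replicates 1 to 4. In miR-21-KD replicates 1 to 4 it had 657, 369.7, 579 and 575 CPM. The groups did not overlap, with miR-21-KD replicate 2 the lowest of its group and VC replicate 4 the highest of its own. The means were 277 ± 53.5 and 545 ± 123 CPM, a log2 fold change of 0.98 (SE 0.20, adjusted p = 0.0101). Over the fits without 1 tumour the adjusted p of Itgam lay between 0.00203 and 0.0336. In the annotation used here 3450 of its 5024 exon bases are shared with Gm49368 on the same strand, and how the counting treated such bases is not given in the sources used here.

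Itgae (Entrez 16407, chr11:73090505-73147449) encodes CD103, which pairs with beta 7 and binds E-cadherin, and marks T cells and dendritic cells in epithelium. It had 12.8, 7.58, 8.59 and 11.7 CPM in VC replicates 1 to 4 against 33.0, 21.3, 17.0 and 20.1 CPM in the miR-21-KD tumours. All miR-21-KD tumours were above all VC tumours, with miR-21-KD replicate 1 highest. The log2 fold change was 1.17 (SE 0.25, adjusted p = 0.0106 from edgeR).

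Itgax, which encodes CD11c of dendritic cells and macrophages, had 27.1, 26.4, 45.1 and 118 CPM in the VC tumours against 191, 93.1, 100.1 and 171 CPM in the miR-21-KD tumours. VC replicate 4 alone overlapped the miR-21-KD group. The log2 fold change was the largest among the tested leukocyte chains (1.36, SE 0.50, adjusted p = 0.0591 from edgeR, and 0.0188 with the replicate block). Itgb2, the beta chain that Itgal, Itgam, Itgax and Itgad share, had 224, 223, 194 and 365 CPM in VC against 474, 286, 358 and 454 CPM in miR-21-KD tumours. Again VC replicate 4 reached into the range of the other group, and the log2 fold change was 0.64 (SE 0.23, adjusted p = 0.0541, and 0.0187 with the block). Itgb7, the partner of Itgae, had 49.0, 38.6, 61.2 and 77.0 CPM in VC against 92.0, 73.7, 64.9 and 88.5 CPM in miR-21-KD tumours (log2 fold change 0.50, SE 0.21, adjusted p = 0.0865 from edgeR). Itga4, the alpha chain of the VCAM-1 receptor, and Itgal, that of LFA-1, had log2 fold changes of 0.59 and 0.51 (adjusted p of 0.191 and 0.343). Itga4 had 28.5, 22.0, 16.6 and 53.0 CPM in VC against 60.2, 42.9, 36.1 and 40.9 CPM in miR-21-KD tumours. Itgal had 44.8, 36.8, 48.5 and 133 CPM in VC against 132, 91.3, 66.7 and 84.3 CPM in miR-21-KD tumours. In both genes VC replicate 4 lay inside or above the range of the miR-21-KD tumours and the other VC tumours below it.

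VC replicate 4 was the highest VC tumour for each of the tested leukocyte chains but Itgae. Without it, all 7 passed the threshold (20.4% of all genes tested in that fit were higher), with Itgal at a log2 fold change of 1.10 (adjusted p = 0.0125) and Itgax at 2.07 (adjusted p = 0.00832). Leaving out the highest VC tumour widens such rises by itself. Itgal and Itgax each passed in only 1 of the 8 fits without 1 tumour (adjusted p of up to 0.624 and 0.135 from edgeR). Among VC tumours, VC replicate 4 also had the highest summed level of B cell markers, 145 CPM against 1.76 to 5.09 CPM in the other VC tumours, and of T cell markers, 212 CPM against 55.7 to 126 CPM. With the block, 4 of the 7 were called higher, as were 23.0% of all tested genes. Itgad, the remaining leukocyte chain, was not tested, with 1 or 2 counts in VC and 5 to 10 counts in miR-21-KD tumours.

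**Figure D2:**
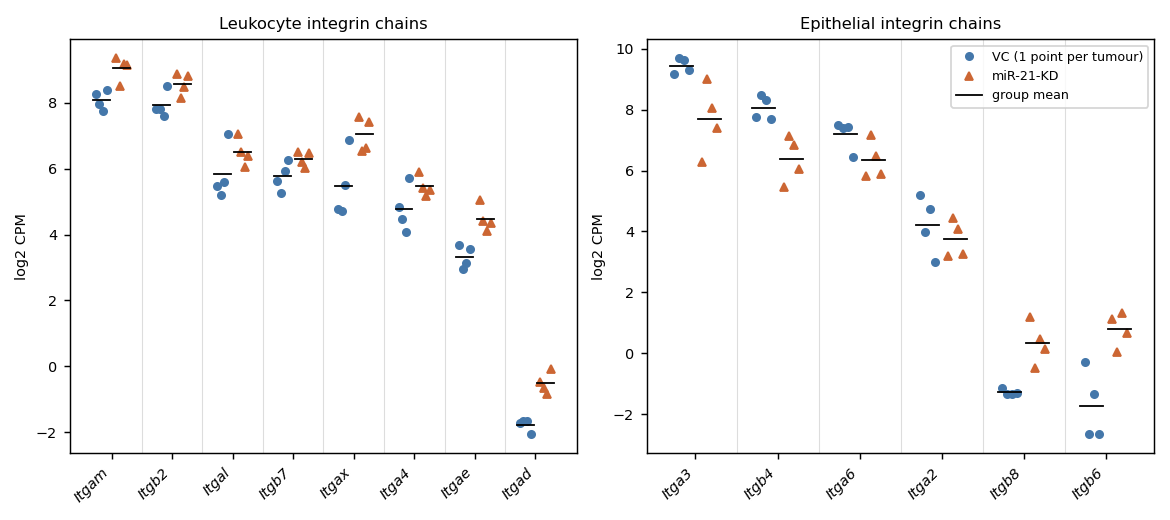
Log2 CPM (prior count 2) of the leukocyte and the epithelial integrin chains in each tumour, with circles for VC, triangles for miR-21-KD and a line at the group mean. Itgam and Itgae separate the groups from below, whereas Itga3 and Itgb4 are lower in every miR-21-KD tumour than in any VC tumour.

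Leukocyte markers were counted beside these chains. Over all tested genes 19.6% were higher, and 23.0% with the block. Of 6 genes that all leukocytes express, 5 were higher, and their summed level was 1064 to 1982 CPM in VC against 2207 to 3124 CPM in miR-21-KD tumours. Of 10 macrophage and monocyte markers 8 were higher (3428 to 5348 CPM in VC, 6314 to 10748 CPM in miR-21-KD), of 7 tested dendritic cell markers 4, and 5 with the block (35.5 to 74.3 and 142 to 202 CPM), of 9 T cell markers 6, and 8 with the block (55.7 to 212 and 185 to 399.9 CPM) and of 6 NK cell markers 2 (20.7 to 110.1 and 73.9 to 125 CPM). Of 7 tested neutrophil markers, 1 was higher without the block and 3 with it (831 to 1444 and 1593 to 3200.2 CPM). The marker called without the block was Mmp9, which other cells also make and which held 539 to 702 CPM of the sum in VC tumours and 1225 to 2707 CPM in miR-21-KD tumours. The 4 tested B cell markers had negative fold changes (median log2 fold change -0.64, and 0.71 with the block) that missed the threshold, and the B cell markers summed to 1.76 to 145 CPM in VC against 8.68 to 63.7 CPM in miR-21-KD tumours. No marker of these lists was at 0 in all tumours.

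Ptprc, which encodes the pan-leukocyte antigen CD45, rose from 189 ± 68.2 to 375 ± 75.6 CPM (log2 fold change 0.99, adjusted p = 0.0180 from edgeR). In log2 ratio to Ptprc, none of the 7 chains passed the correction (exact permutation test, adjusted p of 0.200 to 0.686, with 1 unadjusted p under 0.05). Itgam was 0.60 ± 0.27 log2 units above Ptprc in VC against 0.53 ± 0.27 above it in miR-21-KD tumours, a difference of -0.07 (exact two-sided permutation test, p = 0.686, adjusted p = 0.686 over the 7 chains). For Itgae the difference of the log2 ratio was 0.11, for Itgax 0.54, for Itga4 -0.34, for Itgal -0.37 and for Itgb2 -0.38, all with overlapping groups. Of the 7, Itgb7 was the only chain whose ratio to Ptprc did not overlap between groups. Its log2 ratio was -2.05, -1.77, -1.199 and -1.86 in VC replicates 1 to 4 and -2.39, -2.11, -2.31 and -2.08 in miR-21-KD replicates 1 to 4. The difference was -0.51, with an exact permutation p of 0.0286, the smallest that 4 against 4 tumours can give, and an adjusted p of 0.200. A lone ratio without overlap could not pass the correction over 7 chains, so the lack of a call does not show equal change. With the mean of Ptprc, Coro1a, Laptm5 and Cd53 as the reference, Itgb2 (-0.35) and Itgb7 (-0.48) both had ratios without overlap, with an adjusted p of 0.10 each from the exact permutation test.

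Itgal, Itgam, Itgax and Itgad lie within chr7:127296139-128205504, and Itgam and Itgax are neighbours. Their promoters (RefSeq, 250 bases before to 50 bases after the start, GRCm38.p6, plus strand) are shown because both are myeloid partners of beta 2. Capitals mark GAGGAA on either strand, letters at the core of sites of PU.1, a myeloid transcription factor of the ETS family.
Itgam (chr7:128062390-128062689): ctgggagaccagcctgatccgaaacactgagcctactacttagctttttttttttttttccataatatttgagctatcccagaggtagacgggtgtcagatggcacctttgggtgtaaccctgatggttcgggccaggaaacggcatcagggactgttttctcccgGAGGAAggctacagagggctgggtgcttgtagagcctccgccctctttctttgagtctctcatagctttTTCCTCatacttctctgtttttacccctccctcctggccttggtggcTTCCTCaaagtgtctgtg
Itgax (chr7:128129300-128129599): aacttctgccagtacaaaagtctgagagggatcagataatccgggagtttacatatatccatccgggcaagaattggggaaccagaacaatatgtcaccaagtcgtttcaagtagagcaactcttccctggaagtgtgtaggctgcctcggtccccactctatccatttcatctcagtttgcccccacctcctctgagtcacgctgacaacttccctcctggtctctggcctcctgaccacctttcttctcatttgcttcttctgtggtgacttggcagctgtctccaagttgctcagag

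The letters occurred 3 times in the window of Itgam and 0 times in that of Itgax. Of the 4 leukocyte chains with a window 2 held them, and of the 19 other chains with a window 12 held them in any window. Of all 32851 windows, counted singly, 28.3% held them. The units differ, since Itga3, Itgb6 and Lamb3 each have 1 window with the letters and 1 without.

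Of the 5 tested epithelial integrin chains 2 fell and 1, at few counts, was called higher in miR-21-KD tumours (60% changed, against 39.1% of all tested genes). Itgb4 and Itga3 fell, Itga6 and Itga2 had negative fold changes that missed the threshold, and Itgb6 was the one called higher. Itgb4 (Entrez 192897, chr11:115974725-116008412), the hemidesmosome chain, had 216, 361, 321 and 205 CPM in VC against 43.8, 141, 116 and 66.9 CPM in miR-21-KD tumours. Every miR-21-KD tumour was below every VC tumour, with replicate 1 the lowest and replicate 2 the highest of the lower group. The log2 fold change was -1.59 (SE 0.36, adjusted p = 0.0133 from edgeR), a level 3.003 times lower in miR-21-KD tumours, and its adjusted p stayed between 0.00569 and 0.0418 in the fits without 1 tumour. Of its 7015 exon bases, 537 are shared with B230344G16Rik on the opposite strand, whose reads cannot be told apart if the counting did not use strand.

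Itga3 (Entrez 16400, chr11:95044475-95076844), whose product pairs with beta 1 as a receptor for laminins with the alpha 3 or alpha 5 chain, had 573, 827, 793 and 626 CPM in VC against 76.9, 511, 266 and 170.5 CPM in miR-21-KD tumours. Again no tumours overlapped, but the miR-21-KD tumours were spread widely, from replicate 1 to replicate 2. The log2 fold change was -1.46 (SE 0.49, adjusted p = 0.0426 from edgeR). The call was lost without any 1 of the VC replicates and without miR-21-KD replicate 3 or 4 (adjusted p of 0.0553 to 0.108), and without a filter on low counts (0.0637). Without miR-21-KD replicate 2 the log2 fold change of Itga3 was -2.05. Itga6, the partner of Itgb4, had 181, 169, 174 and 86.3 CPM in VC against 56.8, 143, 90.0 and 58.9 CPM in miR-21-KD tumours. VC replicate 4 was the sole VC tumour within the range of the other group, and the log2 fold change was -0.81 (SE 0.34, adjusted p = 0.0857, and 0.0300 with the replicate block). Without VC replicate 4 the adjusted p was 0.0351 and without miR-21-KD replicate 2 it was 0.0141. In the other fits without 1 tumour Itga6 missed the threshold (adjusted p of up to 0.193). Itga2, an alpha chain of collagen and laminin receptors, had a log2 fold change of -0.60 (adjusted p = 0.331).

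Itgb6, which pairs with alpha v to activate latent TGF-beta on epithelium, had 9, 0, 3 and 0 counts in VC and 25, 11, 29 and 18 counts in miR-21-KD tumours. At 0.225 ± 0.313 and 1.66 ± 0.660 CPM it had few counts in both groups. Since it passed the count filter through the miR-21-KD tumours alone, it had to differ to be tested, and its call carries little weight. The fitted log2 fold change of 2.79 (SE 0.80, adjusted p = 0.0260 from edgeR) depends on how VC counts of 0 are handled. It could not be tested where at least 10 counts were asked of every tumour, and the call was lost without VC replicate 2 or 3 or without miR-21-KD replicate 1, 3 or 4 (adjusted p of 0.0558 to 0.0706). Without VC replicate 1, the VC tumour with the most counts, the log2 fold change was 4.22, and over the 8 fits without 1 tumour it was 2.39 to 4.22. Itgb8, a further partner of alpha v, was not tested for its low counts, with 3 or 4 counts in VC and 7 to 26 counts in miR-21-KD tumours.

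Among 8 markers of carcinoma and mammary epithelium, 5 rose and 1 fell, against 19.6% and 19.5% of all tested genes. Their summed level was 1293 to 2217 CPM in VC against 833 to 1866 CPM in miR-21-KD tumours. Among these markers Krt18 fell by 1.15 on the log2 scale (SE 0.37, adjusted p = 0.0374), and Krt8, with 808, 921, 939 and 565 CPM in VC against 173, 643, 573 and 366 CPM in miR-21-KD tumours, had a log2 fold change of -0.88 (adjusted p = 0.0870, and 0.0413 with the block, under which 2 of the 8 markers were lower). The keratin gene Krt19 and Epcam rose by 3.60 and 1.93 on the log2 scale (adjusted p of 0.00688 and 0.0182 from edgeR), and all 8 markers were detected. Of 6 markers of basal epithelium and myoepithelium 3 were higher, and 5 with the block, under which 23.0% of all tested genes were higher and 22.1% lower. Their summed level was 127 to 210.4 CPM in VC and 205 to 508 CPM in miR-21-KD tumours. The part of these cell types in the levels of the chains was not tested.

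Per kilobase of exon, which allows levels of different genes to be compared, the leading alpha chain differed between groups. In VC tumours Itga3 was the most abundant, at 40.1% ± 6.72 of the summed alpha chain CPM per kilobase, followed by Itgam at 18.0% ± 3.501 and Itga5 at 11.9% ± 1.89. In miR-21-KD tumours Itgam led with 33.3% ± 8.01, before Itga5 with 17.9% ± 0.608 and Itga3 with 13.6% ± 9.48. The level of Itgam was divided by all 5024 exon bases, of which 3450 are shared with Gm49368. If reads there were not counted, its level per kilobase is too low, so its place beside Itga3 is uncertain. By tumour the share of Itga3 was 33.5% to 46.4% in VC and 4.07% to 26.4% in miR-21-KD, and that of Itgam 14.0% to 21.4% and 21.7% to 39.5%. Itga3 was thus apart from the next chains in VC tumours, where Itgam and Itga5 overlapped. In miR-21-KD tumours Itga3 overlapped both Itgam and Itga5, which were apart from each other, and in replicate 2 Itga3 still led. Among beta chains Itgb1 led in both groups (57.7% ± 5.59 in VC, 51.0% ± 6.27 in miR-21-KD), followed by Itgb2 (18.4% ± 5.28 and 26.7% ± 4.89). Itgb4 was number 3 in VC with 8.86% ± 2.70 and number 6 in miR-21-KD tumours with 2.78% ± 1.46. The summed CPM of all integrin chains was 3710.0 to 3870.0 in VC and 3603 to 3953 in miR-21-KD tumours, so that the total lay in much the same range while its make-up differed.

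**Figure D3:**
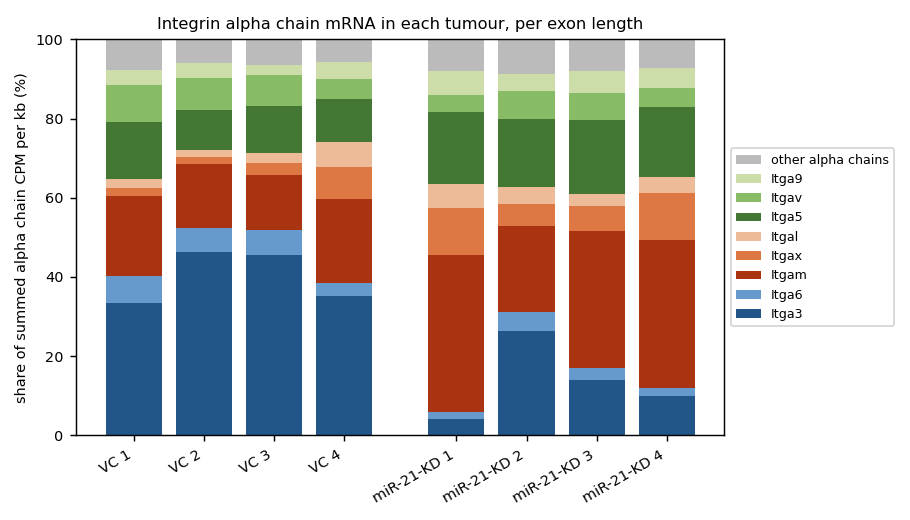
Share of each integrin alpha chain in the summed alpha chain CPM per kilobase of exon (y axis, percent) in each tumour (x axis). Itga3 holds 33.5% to 46.4% in the VC tumours and 4.07% to 26.4% in the miR-21-KD tumours, where Itgam holds 21.7% to 39.5%.

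Among the 12 stromal, vascular, platelet and widely expressed integrin chains, 5 rose and 1 fell (50% changed, against 39.1% of all tested genes). The rises were in the fibronectin receptor chain Itga5, in Itga9, Itga11 and Itga8, which serve mesenchymal cells, and in Itgb3, and the fall was in Itga10. Itga5 (Entrez 16402, chr15:103344286-103366791) had 215, 159, 179 and 166 CPM in VC against 297, 287, 305 and 266 CPM in miR-21-KD tumours. The groups were well apart, and the miR-21-KD tumours differed little among themselves. The log2 fold change was 0.69 (SE 0.11, adjusted p = 0.00602 from edgeR), the smallest adjusted p of any chain. Itgb1, its sole partner, had 1187, 1060.0, 1035 and 927 CPM in VC against 949, 1057, 1076 and 894 CPM in miR-21-KD tumours, which overlapped (log2 fold change -0.08, SE 0.12, adjusted p = 0.599).

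Itga10 (Entrez 213119, chr3:96645584-96664519), a collagen receptor chain known from cartilage, had 6.78, 21.5, 9.93 and 11.04 CPM in VC against 1.70, 3.30, 2.52 and 1.80 CPM in miR-21-KD tumours. Every miR-21-KD tumour lay below every VC tumour. The log2 fold change was -2.40 (SE 0.39, adjusted p = 0.00632 from edgeR), a level 5.26 times lower, which was the sole chain past the threshold in the test for a change of more than 1.5-fold. In the annotation 1739 of its 5186 exon bases are shared with Gm42957 on the same strand.

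Itga11, the collagen receptor chain of fibroblasts, had 6.64, 1.197, 2.36 and 4.25 CPM in VC against 21.7, 7.15, 13.1 and 9.47 CPM in miR-21-KD tumours. The groups did not overlap (log2 fold change 1.83, SE 0.53, adjusted p = 0.0267). Itga9, a receptor chain for tenascin-C, had 91.0, 89.7, 61.2 and 98.5 CPM in VC against 155, 107, 146 and 115 CPM in miR-21-KD tumours, again without overlap (log2 fold change 0.62, SE 0.17, adjusted p = 0.0246). Both calls were lost without VC replicate 2 or 3 or without miR-21-KD replicate 1 or 3, with an adjusted p of up to 0.0750 for Itga11 and 0.0643 for Itga9.

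Itga8, the nephronectin receptor chain and the 1 changed chain with any of the letters searched (TAAGCTA), had 3.24, 1.52, 2.21 and 3.43 CPM in VC against 6.14, 2.52, 7.95 and 9.24 CPM in miR-21-KD tumours. Its groups overlapped at miR-21-KD replicate 2, and the log2 fold change was 1.31 (SE 0.42, adjusted p = 0.0377). It was past the threshold in only 2 of the 8 fits without 1 tumour, those without VC replicate 4 or miR-21-KD replicate 2 (adjusted p of up to 0.102 in the others), and with limma-voom its adjusted p was 0.0649. Itgb3, the beta chain of platelet and vitronectin receptors, had 131, 95.5, 89.7 and 107 CPM in VC against 195, 124, 189 and 163 CPM in miR-21-KD tumours. The overlap came from VC replicate 1 and miR-21-KD replicate 2, and the log2 fold change was 0.66 (SE 0.17, adjusted p = 0.0178). Without VC replicate 2 or 3 its adjusted p was 0.0528 and 0.0549.

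The partners of Itgb3 did not pass the threshold. Itga2b, the alpha chain of the platelet fibrinogen receptor, had 7.30, 4.79, 7.41 and 6.78 CPM in VC against 8.41, 9.20, 9.50 and 9.24 CPM in miR-21-KD tumours, which did not overlap (log2 fold change 0.47, SE 0.17, adjusted p = 0.0601, and 0.0225 to 0.134 over the alternatives other than the 1.5-fold test). Itgav had 294, 269, 261 and 172 CPM in VC against 151, 266, 242 and 159.8 CPM in miR-21-KD tumours, with overlap (log2 fold change -0.28, SE 0.23, adjusted p = 0.346), although its UTR holds an 8-letter match. Itga1, with 3 matches, had a log2 fold change of 0.28 (adjusted p = 0.313), Itga7, the muscle laminin receptor chain, 0.46 (adjusted p = 0.427) and Itgb5 0.36 (adjusted p = 0.190 in edgeR).

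Markers of the cells that make these chains were not alike. Over all tested genes 19.6% were higher and 19.5% lower, and 23.0% and 22.1% with the block. Of 8 fibroblast markers 7 were higher (summed level 3046 to 8129 CPM in VC, 10547 to 23614 CPM in miR-21-KD), whereas of 8 endothelial markers 1 was, and 2 with 1 lower under the block (468 to 785 and 669.6 to 927 CPM). Of 7 markers of pericytes and smooth muscle 4 were higher, 6 with the block, and 1 lower (381 to 498 and 493 to 757 CPM). Of 6 platelet markers 3 had enough counts to be tested and Pf4, which macrophages can also express, was higher. Gp6, specific to platelets, was at 0 in all tumours. All 5 adipocyte markers were higher (85.2 to 319.8 and 428 to 1124 CPM). Their part in the levels of the chains was not tested.

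**Figure D4:**
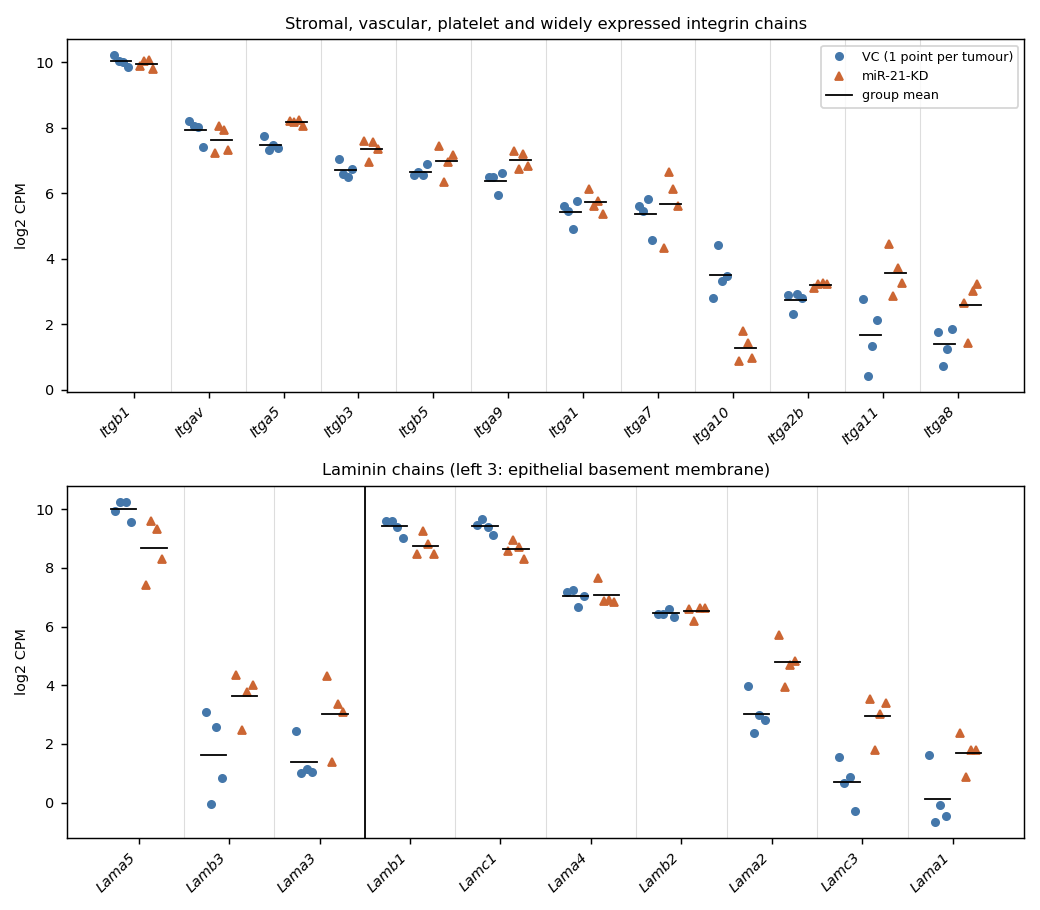
Log2 CPM (prior count 2) in each tumour of the 12 stromal, vascular, platelet and widely expressed integrin chains (top) and of laminin chains (bottom), with circles for VC, triangles for miR-21-KD and a line at the group mean. Itga5 and Itga10 lie apart in opposite directions, Lamc1 is lower and Lamc3 higher in every miR-21-KD tumour than in any VC tumour.

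Of the 11 laminin chains 3 rose and 2 fell (45.5% changed, against 39.1% of all tested genes, of which 19.6% rose and 19.5% fell). The 2 that fell, Lamc1 and Lamb1, are the gamma and beta chain of most laminins and were the most abundant of their kind per kilobase in both groups. The 3 that rose, Lamc3, Lama2 and Lama3, were less expressed chains per kilobase. Lamc1 (Entrez 226519, chr1:153218922-153332786) had 712, 809, 671 and 563 CPM in VC against 383, 498, 424 and 318 CPM in miR-21-KD tumours. No miR-21-KD tumour reached the VC range, and the log2 fold change was -0.76 (SE 0.16, adjusted p = 0.0108 from edgeR). Lamb1 had 781, 779.8, 682 and 522 CPM in VC against 356, 617, 455 and 357 CPM in miR-21-KD tumours. VC replicate 4 and miR-21-KD replicate 2 overlapped, and the log2 fold change was -0.63 (SE 0.21, adjusted p = 0.0422). The call of Lamb1 was lost in the 6 fits without VC replicate 1, 2 or 3 or without miR-21-KD replicate 1, 3 or 4 (adjusted p of 0.0852 to 0.108).

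Lamc3 (Entrez 23928, chr2:31887281-31949083), the gamma chain of nerve and vessel laminins, had 2.80, 1.44, 1.66 and 0.654 CPM in VC against 11.3, 3.30, 8.03 and 10.4 CPM in miR-21-KD tumours. No VC tumour reached the miR-21-KD range, and the log2 fold change of 2.32 (SE 0.49, adjusted p = 0.0106 from edgeR) was the largest rise among laminin chains. Its VC counts were low, at 8 to 38, and 3 VC tumours reached the level of the count filter. Lama2, the alpha chain of muscle and nerve basement membrane, had 15.5, 5.03, 7.72 and 6.87 CPM in VC against 51.9, 15.3, 25.9 and 28.3 CPM in miR-21-KD tumours. VC replicate 1 and miR-21-KD replicate 2 were nearly equal, and the log2 fold change was 1.79 (SE 0.44, adjusted p = 0.0159, and 0.0501 without VC replicate 3).

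Lama3 and Lamb3, chains of laminin below the hemidesmosome, both had positive fold changes, of which that of Lama3 passed the threshold. Lama3 had 5.24, 1.83, 2.05 and 1.88 CPM in VC against 19.9, 2.44, 10.1 and 8.30 CPM in miR-21-KD tumours, with overlap between VC replicate 1 and miR-21-KD replicate 2 (log2 fold change 1.88, SE 0.61, adjusted p = 0.0396). Its call was lost without VC replicate 2, 3 or 4 or without miR-21-KD replicate 1, 3 or 4 (adjusted p of 0.0700 to 0.107), without a filter on low counts (0.0531) and with limma-voom (0.0871). Lamb3 had 8.33, 0.798, 5.75 and 1.63 CPM in VC against 20.05, 5.34, 13.4 and 15.8 CPM in miR-21-KD tumours (log2 fold change 1.72, SE 0.68, adjusted p = 0.0717, and 0.0114 with the replicate block).

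Lama5, the alpha chain of the main laminin of mature epithelial and vessel basement membranes, was the most abundant laminin alpha chain per kilobase in both groups. It had 979, 1231, 1204 and 756 CPM in VC against 171, 785, 647 and 318 CPM in miR-21-KD tumours. VC replicate 4 and miR-21-KD replicate 2 overlapped, and the log2 fold change was -1.12 (SE 0.43, adjusted p = 0.0667, and 0.0202 with the block). Its share of the summed laminin alpha chain CPM per kilobase was 88.1% ± 3.12 in VC against 69.4% ± 20.6 in miR-21-KD tumours, and in miR-21-KD replicate 1 it was 40.4%, with Lama4 at 44.7%. Lama4, the endothelial alpha chain, had 145, 153, 101 and 133 CPM in VC against 201, 116, 121 and 113 CPM in miR-21-KD tumours (log2 fold change 0.05, adjusted p = 0.857). Lamb2, the beta chain of vessel and muscle laminins, had 86.4, 85.4, 96.6 and 81.0 CPM in VC against 96.9, 72.9, 98.8 and 99.8 CPM in miR-21-KD tumours (log2 fold change 0.08, adjusted p = 0.618). Both genes had overlapping groups. Lama1 had a log2 fold change of 1.45 (SE 0.60, adjusted p = 0.0826, and 0.0121 with the block). It had 2.95, 0.479, 0.788 and 0.572 CPM in VC against 5.01, 1.65, 3.33 and 3.29 CPM in miR-21-KD tumours, with VC replicate 1 within the range of the other group. Without that tumour its log2 fold change was 2.42 (adjusted p = 0.00897), the 1 fit of the 8 without 1 tumour in which it passed (adjusted p of up to 0.191 in the others). Over all laminin chains the summed level was 2090.3 to 3155 CPM in VC against 1364 to 2292 CPM in miR-21-KD tumours.

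Because a chain reaches the surface or the matrix only in a dimer or trimer, the log2 ratio of chains that join was compared within each tumour. Of 29 pairs with both chains tested, 5 had ratios without overlap between groups. These had an exact two-sided permutation p of 0.0286, the smallest that 4 against 4 can give, and an adjusted p of 0.138 over the 29 pairs, so that 0 pairs passed the correction and 5 had an unadjusted p under 0.05. With this smallest p, 5 pairs without overlap among 29 could not pass, so the correction cannot show equal change. The ratio of Itga5 to Itgb1 was -2.55 ± 0.13 in VC against -1.78 ± 0.09 in miR-21-KD tumours, a difference of 0.77. The ratio of Itga11 to Itgb1 was higher by 1.99, that of Lama2 to Lamb1 by 2.42 and that of Lamb2 to Lamc1 by 0.84. The remaining pair, Itgav to Itgb6, rests on the prior count, as Itgb6 had 0 counts in VC replicates 2 and 4, and entered the comparison through its miR-21-KD counts, so no size is given for it.

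The other pairs had overlapping ratios. Lamb1 and Lamc1, which both fell, had a ratio of 0.00 ± 0.10 in VC against 0.12 ± 0.17 in miR-21-KD tumours. The ratio of Itgam to Itgb2 was higher by 0.31, that of Itgax to Itgb2 by 0.92 and that of Itgae to Itgb7 by 0.62, each with overlapping groups, although all 4 same-numbered differences were positive for the 3 pairs. Itga6 to Itgb4 was -0.87 ± 0.44 in VC against -0.04 ± 0.32 in miR-21-KD tumours, higher by 0.83 with overlap (exact permutation p = 0.0571, adjusted p = 0.138). Here too all 4 same-numbered differences were positive.

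**Figure D5:**
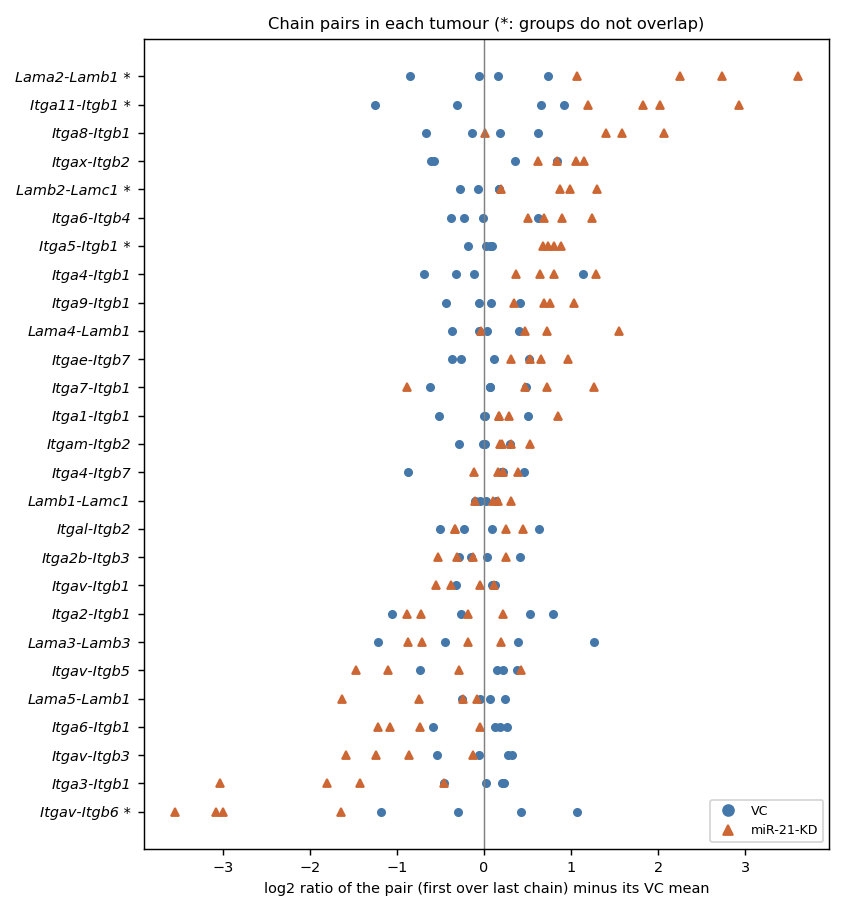
Log2 ratio of chain pairs in each tumour, minus the VC mean of that pair (x axis), with circles for VC and triangles for miR-21-KD. A star marks the 5 pairs whose groups do not overlap, Lama2 to Lamb1, Itga11 to Itgb1, Lamb2 to Lamc1 and Itga5 to Itgb1 above 0 and Itgav to Itgb6 below 0, the last of which rests on VC counts of 0 for Itgb6.

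The ligands in the matrix changed in both directions. Of 20 matrix ligands of integrins 18 were tested, of which 9 rose, 10 with the block, and 3 fell (66.7% changed without the block, against 39.1% of all tested genes, median log2 fold change 0.38). Fn1, the fibronectin bound by the Itga5 product, had 3635, 2437, 1985 and 2695 CPM in VC against 10914, 5462, 11332 and 8355 CPM in miR-21-KD tumours. Each miR-21-KD tumour was above each VC tumour, and Fn1 rose by 1.75 on the log2 scale (SE 0.28, adjusted p = 0.00585 from edgeR). Npnt, the nephronectin bound by the Itga8 product, had 165, 279, 166 and 169.8 CPM in VC against 10.3, 42.9, 27.5 and 18.2 CPM in miR-21-KD tumours. It fell by 2.98 on the log2 scale (SE 0.41, adjusted p = 0.00523), in the direction opposite to that of Itga8. Vwf and Fbn1, the von Willebrand factor and fibrillin genes, rose by 1.957 and 1.54 (adjusted p of 0.00785 and 0.0109), and the bone sialoprotein gene Ibsp fell by 2.93 (adjusted p = 0.00935 from edgeR).

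Cell surface ligands of leukocyte integrins were tested for 8 of 11 genes, of which 3 rose and 1 fell (50% changed, against 39.1% of all tested genes), and 5 rose with the block (against 23.0% of all tested genes). Cdh1, the E-cadherin bound by the Itgae product, had 74.2, 33.4, 48.5 and 16.8 CPM in VC against 140.0, 89.2, 147 and 119.7 CPM in miR-21-KD tumours, without overlap. It rose by 1.52 on the log2 scale (SE 0.39, adjusted p = 0.0185). Thy1 and Jam3, both ligands of the Itgam product, rose by 0.77 and 1.11 (adjusted p of 0.0159 and 0.0396), and F11r, a junction protein bound by LFA-1, fell by 0.65 (adjusted p = 0.00807). Icam1, the main ligand of LFA-1, had a log2 fold change of 0.58 (adjusted p = 0.0504, and 0.0340 with the block).

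Of 17 tested laminin partners in the basement membrane 4 rose and 3 fell, and with the block 5 rose and 5 fell (41.2% without the block, against 39.1% of all tested genes, and 23.0% and 22.1% of all tested genes by direction with it). Ntn4, Bcam and Frem2, which encode a netrin that joins laminin networks, a laminin alpha 5 receptor and a membrane protein of the epithelial basement membrane, rose by 1.98, 1.21 and 1.66 on the log2 scale (adjusted p of 0.00735, 0.00849 and 0.0151). Col18a1, the source of endostatin, and Tinagl1 fell by 0.80 and 1.12 (adjusted p of 0.00922 and 0.0217 from edgeR). All 6 hemidesmosome genes were tested and 3 rose (50%, against 19.6% of all tested genes), and 1 was lower under the block (against 22.1%). The 3 were Krt14 (3.08), Krt5 (2.90) and Col17a1 (2.22), the keratins of basal epithelium and collagen XVII, with adjusted p of 0.0110, 0.0284 and 0.0180. Cd151, a tetraspanin that binds laminin receptors, had a log2 fold change of -0.58 (adjusted p = 0.0544, and 0.0178 with the block) and Plec, the plectin that links Itgb4 to keratin, one of -0.41 (adjusted p = 0.178).

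Inside the cell, 32 genes of integrin activation and the adhesion plaque were tested, of which 9 rose and 5 fell (43.8%, against 39.1% of all tested genes), and 11 and 7 with the block (23.0% and 22.1% of all tested genes). The tensins divided, with Tns1 higher by 1.45 (SE 0.24, adjusted p = 0.00641) and Tns2, which fell by 0.71 (SE 0.12, adjusted p = 0.00663). Kank2, an adaptor at the rim of the plaque, fell by 0.56 (SE 0.10, adjusted p = 0.00663). Fyn, a kinase of the Src family, and Lims2, an adaptor of integrin-linked kinase, rose by 0.70 and 1.72 on the log2 scale (adjusted p of 0.00811 and 0.00873 from edgeR).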

How the data were processed

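RNA sequencing of 8 whole tumours was analysed. The authors deposited raw counts per Entrez gene, 1 column per tumour, without normalization. The submitters' notes name mm10, Subread, featureCounts, edgeR and limma, without versions or roles. The strand setting and annotation of the counting are not given in the sources used here. Symbols came from the reference tables (25275 of 27179 identifiers). Counts were filtered (filterByExpr, minimum count 10, minimum total 15), scaled by TMM and tested in R 4.3.3 with the robust quasi-likelihood test of edgeR 4.0.16 and Benjamini-Hochberg adjustment. Log2 CPM took a prior count of 2. Ratios were compared with exact permutation tests (scipy 1.17.1). DESeq2 1.42.0, limma 3.58.1, other scalings and filters, a replicate block and each tumour left out were the alternatives.

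The labels number the tumours 1 to 4 in each group. Deviations from the group means correlated between same-numbered tumours (0.272, 0.421, 0.175 and 0.376). The mean for other combinations (-0.105) is tied to these values, since deviations sum to 0 within a group, and is no separate check. Whether the numbers mark pairs is not given in the labels, so the block is an alternative. Blocked values are given for each chain whose call changed, and as counts for gene lists. No tumours of a group were alike within sampling noise (chi-square per degree of freedom 13.3 to 75.4). On simulated counts for 14260 genes, the test of miR-21-KD against VC recovered 83.8% of genes set to change 4-fold, 55.6% of those set to 2-fold and made 5 false calls. The simulation set a far smaller part of the genes to change than the 39.1% called in the data, and its tumours were independent. Its rates therefore need not hold for these data. The members and gene lists were chosen with earlier results of these data known. The chains, the up to 5 genes of each pathway list with the smallest adjusted p, and cell type genes beside a result are named, except 1 chain, which counts among the members but is not reported here.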

Additional observations from a re-analysis of the deposited data

Results flagged for a closer look

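Single tumours stood apart in their group for 6 values, by the gap to the nearest tumour over the range of the group (Dixon's test, 70 groups of 4 checked, of which chance flags about 1 in 20). Itgal was highest in VC replicate 4 (133 CPM) and Itga6 lowest in the same tumour (86.3 CPM). Lama1 (2.95 CPM) and Lama3 (5.24 CPM) were highest in VC replicate 1. Lama4 was highest in miR-21-KD replicate 1 (201 CPM) and Lamb2 lowest in miR-21-KD replicate 2 (72.9 CPM).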

How the results depend on the processing

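The main fit gave 11 chains higher and 5 lower, with 5626 of all 14382 tested genes called. DESeq2 gave 17 chains higher and 7 lower (6550 of all genes called). Limma-voom with quality weights gave 18 higher and 7 lower (8202 of all genes called). An adjusted p under 0.01 left 1 higher and 1 lower. The edgeR test for a change of more than 1.5-fold left 0 higher (10 at an unadjusted p under 0.05) and 1 lower (542 of all genes). Without 1 tumour the counts were 5 to 16 higher and 3 to 7 lower, fewest higher without VC replicate 3. These include Itgb8, which passed the count filter in 5 of the 8 fits, and over the 35 chains alone 4 to 15 were higher. Calls over all genes in the same fits ran from 2936, without VC replicate 3, to 6840, without miR-21-KD replicate 2. With no filter 12 chains were higher, of which Itgb8 and Itgad are outside the 35, and Itgb6, Lama1 and Lamc3 could not be tested where every tumour needed 10 counts. With the replicate block they were 15 and 7, and the block took no call away and changed no call of a chain other than those given beside it. Library size alone, upper-quartile scaling, the other filters and limma-voom kept both counts within 1.5 times. Lama4, not called, turned to a log2 fold change of -0.06 without VC replicate 3 and -0.18 without miR-21-KD replicate 1 (-0.18 to 0.14 over the 8 fits), and the cause was not tested. No pair or ratio to Ptprc passed the correction under a prior count of 0.5 or 5. With 3 against 4 tumours or 4 sign flips the smallest p is 0.0571 or 0.125, so these gave counts without overlap: 5 to 13 pairs and 1 or 2 ratios. All 4 same-numbered differences had 1 sign for 17 of 29 pairs and 3 of 7 ratios. These counts include the 5 pairs and 1 ratio without overlap in the main comparison, for which 1 sign is certain. At these depths, Itgad, Itgb6 and Itgb8 rest on few counts.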
